A study of Mus musculus with 18 samples.

Results

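The arrays described here compare HPRT-knockdown mouse embryonic stem (ES) cells with the cells they had become at the neuronal stage, the end point of differentiation. They are the 3 knockdown arrays of the ES stage and the 3 knockdown arrays of the neuronal stage, 6 of the 18 arrays of the series, and 21132 of the 45281 probes on the array were compared because all 3 arrays of the ES stage, or all 3 of the neuronal stage, detected them. A probe counts as detected where its detection p-value, the share of negative-control beads that were brighter, was under 0.05.

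The cells were of the mouse ES line ESD3 (strain 129s2/SvPas), a line grown on mouse embryo fibroblast feeders, and were driven towards dopaminergic neurons through spherical neural masses (SNM), floating balls of neural precursors. Both knockdown groups carried a virally delivered short hairpin RNA against HPRT and had been selected with puromycin, so the ES and the neuronal group shared the hairpin, the selection and the parent line. The control groups carried a hairpin against luciferase, a gene that mouse cells lack, and passed through the same stages. RNA of replicate cultures was pooled for each condition and the pool was hybridised to 3 arrays, so SDs and p-values describe how well an array reads its pool, and say nothing of how cultures vary. Each group is a mixed culture, with feeder cells possible at the ES stage and several cell types possible at the neuronal stage, and the knockdown is 1 selected population of 1 line.

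ES cells hold a pluripotent state through a small network of transcription factors around Oct4, encoded by Pou5f1, with Nanog and Sox2, and they divide fast, with a short gap before DNA replication. As they become neural, this network shuts down, most of the cells leave the cell cycle, and precursors give rise first to neurons and later to glia. Of the glia, astrocytes take up transmitter and carry water and ion transporters, while oligodendrocyte precursors mature under Sox10, Olig1, Olig2 and Nkx2-2 and wrap axons in myelin, a membrane rich in a few proteins such as Mbp. HPRT, the enzyme that the hairpin targets, salvages the purine bases hypoxanthine and guanine into nucleotides.

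The differentiation turned over a large part of the transcriptome. On the log2 scale of normalized signal, 6339 probes for 4828 gene symbols were called higher at the neuronal stage, which is 30.0% of the probes tested, and 7129 probes for 5326 symbols were called lower, which is 33.7%. A call needed an adjusted p-value under 0.05 from limma, with the Benjamini-Hochberg method over all probes tested, and a change of at least 1.5-fold. The rises were the larger: 1982 probes rose and 1374 fell by at least 4-fold, and 362 rose and 118 fell by at least 16-fold. The median change of all tested probes was -0.10, and every list below is to be read against this value and against the 30.0% and 33.7%. A gene detected at 1 stage only passed the filter through that stage, which nearly fixes the direction of its change. Of the probes tested, 15645 were detected on all arrays of both stages, 2255 were detected on all neuronal but no ES arrays, and 904 on all ES but no neuronal arrays. Between 18827 and 19982 probes were detected on the ES arrays and between 20911 and 21278 on the neuronal arrays. The arrays of 1 stage correlated with each other at 0.993 to 0.996, and those of different stages at 0.867 to 0.871.

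The targeted gene, listed on the array as Hprt1, lies on chromosome X and has 3 probes. On the brightest of them the log2 signal was 8.14, 7.96 and 7.75 on the knockdown ES arrays and 6.56, 6.64 and 6.60 on the neuronal arrays. All of these arrays lay below the control means of 12.04 at the ES stage and 11.05 at the neuronal stage. On the knockdown SNM arrays, between these stages, the mean of this probe was 9.44, above both knockdown groups compared here. The knockdown signal fell by 1.35 (SE 0.08, adjusted p = 9.6e-11) from ES to neuronal stage. The control signal changed by -0.99, and the difference between these changes, -0.36, was under 1.5-fold and not called. A second probe changed by -1.41, and the third was not tested because it was detected on 2 of the 3 ES arrays.

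Promoter sequences are shown here for 6 genes of 3 groups that fell, to set short motifs in front of the gene beside the values below. Each is the RefSeq sequence (GRCm38.p6) of the 250 bases just before the most upstream start of the gene, 5′ to 3′ on the gene's strand. In Cdk1, Cdc20 and Top2a, genes of mitosis, the capitals mark the CCAAT box (CCAAT, or ATTGG on the other strand) and the CHR element (TTTGAA, or TTCAAA). In Mcm5 and Mcm6, genes of DNA replication, they mark an E2F core (TTCGCGC, or GCGCGAA), and in Zfp42, a pluripotency gene, the octamer bound by Oct4 (ATGCAAAT, or ATTTGCAT). The windows lie at chr10:69352913-69353162 (Cdk1), chr4:118437344-118437593 (Cdc20), chr11:99024190-99024439 (Top2a), chr1:128359706-128359955 (Mcm6) and chr8:43307010-43307259 (Zfp42), all on the minus strand, and at chr8:75109259-75109508 on the plus strand (Mcm5).
Cdk1: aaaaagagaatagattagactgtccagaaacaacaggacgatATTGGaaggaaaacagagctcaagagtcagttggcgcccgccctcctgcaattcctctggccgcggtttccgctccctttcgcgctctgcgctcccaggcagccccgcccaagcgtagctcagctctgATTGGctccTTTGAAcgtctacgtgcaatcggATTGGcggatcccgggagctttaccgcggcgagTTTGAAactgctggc
Cdc20: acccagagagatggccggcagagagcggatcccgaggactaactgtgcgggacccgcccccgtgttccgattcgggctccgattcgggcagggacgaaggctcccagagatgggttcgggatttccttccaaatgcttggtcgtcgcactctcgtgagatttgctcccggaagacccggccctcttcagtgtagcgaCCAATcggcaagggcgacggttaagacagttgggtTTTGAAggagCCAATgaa
Top2a: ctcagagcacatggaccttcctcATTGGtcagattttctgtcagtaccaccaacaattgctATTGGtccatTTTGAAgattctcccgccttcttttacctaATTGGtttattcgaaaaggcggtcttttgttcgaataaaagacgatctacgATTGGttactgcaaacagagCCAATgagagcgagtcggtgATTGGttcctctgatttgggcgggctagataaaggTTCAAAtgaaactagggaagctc
Mcm5: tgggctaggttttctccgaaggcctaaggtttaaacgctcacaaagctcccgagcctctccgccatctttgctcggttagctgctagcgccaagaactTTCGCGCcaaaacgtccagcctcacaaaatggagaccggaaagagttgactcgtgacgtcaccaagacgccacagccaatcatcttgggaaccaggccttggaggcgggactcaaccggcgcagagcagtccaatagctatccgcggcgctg
Mcm6: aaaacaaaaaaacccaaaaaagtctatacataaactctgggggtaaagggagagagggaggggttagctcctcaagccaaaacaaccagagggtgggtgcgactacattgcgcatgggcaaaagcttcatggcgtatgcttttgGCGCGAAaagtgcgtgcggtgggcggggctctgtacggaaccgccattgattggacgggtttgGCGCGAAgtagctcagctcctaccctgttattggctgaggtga
Zfp42: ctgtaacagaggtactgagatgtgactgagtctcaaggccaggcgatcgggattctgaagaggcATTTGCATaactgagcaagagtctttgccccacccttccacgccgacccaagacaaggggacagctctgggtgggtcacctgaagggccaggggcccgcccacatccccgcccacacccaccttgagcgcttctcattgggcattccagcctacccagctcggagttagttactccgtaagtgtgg

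In these windows Top2a has 6 CCAAT boxes, Cdk1 has 3 and Cdc20 has 2. The CHR letters nearest to the start lie 15 bases before it in Cdk1, 18 in Cdc20 and 23 in Top2a. Over the groups, 30 of the 36 tested mitosis genes had a RefSeq promoter, and 23 of these (76.7%) held CCAAT, against 34.5% of all 27025 promoters of this length. The CHR letters were in 10 of the 30 (33.3%), against 16.3%. The E2F core was in 4 of 31 DNA replication promoters (12.9%; Mcm5, Mcm6, Rfc3 and Orc1), against 1.31%, and the octamer was in 1 of 26 pluripotency promoters (3.85%), against 1.62%. Motifs were also searched in lists that rose. The SOX core (ACAAAG) was in 5 of 24 myelin promoters (20.8%) and in 0 of 16 oligodendrocyte lineage promoters, against 16.5% of all. The SRE core (TCACNCCAC) was in 0 of 23 promoters of cholesterol and fatty acid synthesis, against 1.03%, and the CLEAR core (TCACGTGA) in 2 of 39 lysosomal promoters (5.13%), against 0.803%. These are matches of letters, searched on both strands, and not measured binding sites.

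The pluripotency genes fell almost without exception. Of 40 tested genes 38 fell, none rose, and the median change was -3.94, against -2.62 for the same genes in control cells. The log2 signal of Pou5f1, on chromosome 17, was 12.43, 12.26 and 12.33 on the ES arrays and 7.42, 7.35 and 7.19 on the neuronal arrays. The stages did not overlap, and the fall of 32.5-fold (log2 change -5.02, SE 0.08, adjusted p = 5.2e-18) left the gene detected on every neuronal array. Zfp42 (Rex1), a zinc finger gene of naive stem cells, went from 12.83, 12.61 and 12.70 to 7.06, 6.75 and 6.78, a change of -5.85 (SE 0.10, adjusted p = 1.6e-17) and the largest on the list. Again every ES array lay above every neuronal array.

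Other members of the network fell by similar amounts. On its brightest probe Nanog fell from 12.68, 12.45 and 12.52 to 8.36, 8.57 and 8.36, and its second probe changed by -5.10. Esrrb, an orphan nuclear receptor, changed by -5.13, L1td1, an RNA-binding protein of ES cells, by -5.05 and the Nodal co-receptor gene Tdgf1 by -4.99. The markers Utf1 and Dppa5a changed by -4.02 and -2.83. Dppa5a kept a log2 signal of 11.64 (SD 0.07, n = 3 arrays) at the neuronal stage, after 14.48 (SD 0.06) at the ES stage.

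Only Sox2 and Fgf5 were not called on this list. Sox2, which neural precursors and glia share with ES cells, read 10.87, 10.69 and 10.80 on the ES arrays and 10.59, 10.55 and 10.95 on the neuronal arrays. These ranges overlapped (change -0.09, SE 0.13, adjusted p = 0.52). In control cells the means were 11.07 and 9.57, and the change differed between knockdown and control by 1.41 (adjusted p = 1.5e-05). Fgf5, a marker of the primed epiblast, read 5.43, 5.30 and 5.88 and then 5.24, 5.30 and 5.27, and was detected on all of these arrays.

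Genes that are otherwise germ line genes and are active in ES cells fell with them, 13 of 13 tested, with a median of -3.07. Tex19.1, which protects the germ line from transposons, showed the largest fall of any gene-named probe detected on all arrays of both stages, from 11.97, 11.87 and 11.78 to 5.65, 5.81 and 5.77 (-6.13, SE 0.07). The RNA-binding protein gene Dazl changed by -5.41. Further large falls among probes detected throughout were those of Tuba3a, a tubulin gene of the testis (-5.11), Tdh, the threonine dehydrogenase on which mouse ES cells depend (-5.05), the growth factor gene Nodal (-4.99) and Fbxo15 (-4.98). Probes detected at the ES stage and on no neuronal array give lower bounds, and the ES signal was at least 27.5-fold higher for Tex19.2, 26.2-fold for Pla2g10, 24.9-fold for the keratin gene Krt42 and 20.4-fold for Zscan10. For Zfp296, Zfp819, Mmrn2, Nlrp4c, Xlr5a and Nr5a2 the bounds were between 14.4-fold (Nr5a2) and 19.2-fold (Zfp296).

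**Figure D1:**
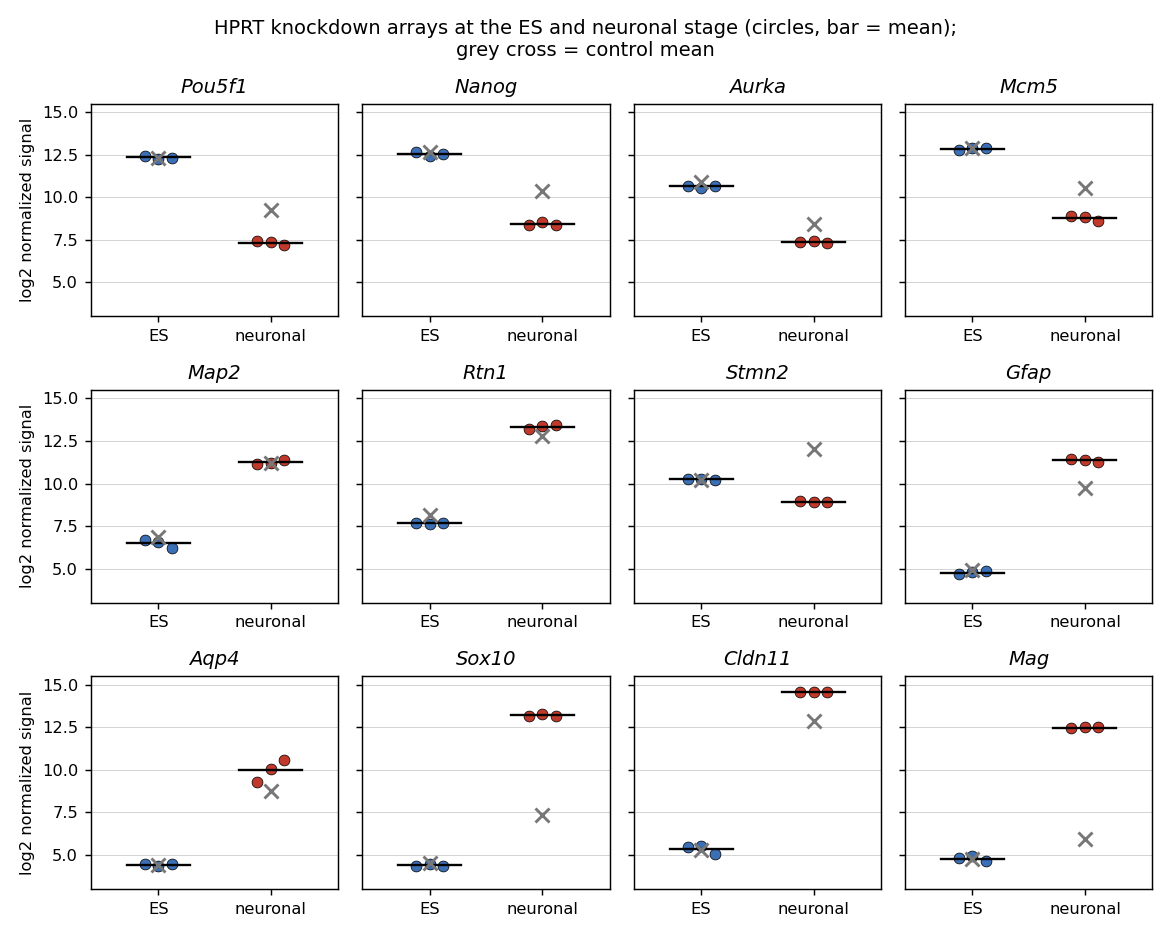
Log2 normalized signal of 12 genes on each HPRT-knockdown array at the ES stage (blue circles) and the neuronal stage (red circles), with the mean as a bar and the control mean of the same stage as a grey cross. Pou5f1, Nanog, Aurka, Mcm5 and Stmn2 were lower on all 3 neuronal arrays, and the other genes were higher on all 3.

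Genes of DNA replication and of mitosis all fell. Of the replication list 37 of 37 tested genes fell, with a median of -2.91, and of the mitosis list 36 of 36, with a median of -2.63. For Mcm5, a subunit of the replicative helicase, the log2 signal was 12.77, 12.90 and 12.91 at the ES stage and 8.90, 8.85 and 8.59 at the neuronal stage, a fall of 16.9-fold (-4.08, SE 0.09). Mcm10, which loads onto the helicase as forks start, changed by -4.21, the largest change of the list, the chromatin assembly factor subunit Chaf1b by -3.87 and Cdc6, which loads the helicase, by -3.86. The smallest was that of Gins4, -0.93.

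Among the mitotic genes the changes lay close together, between -3.26 and -1.77. The kinase gene Aurka read 10.67, 10.57 and 10.67 and then 7.35, 7.45 and 7.34 (-3.26, SE 0.06, adjusted p = 2.0e-17). Birc5 (survivin) changed by -3.16, the separase gene Espl1 by -3.11 and Bub1b, of the spindle checkpoint, by -3.04. Of the genes whose promoters are printed, which were picked for their letters after their values were known, Cdk1 changed by -2.62, Cdc20 by -2.69, Top2a by -2.78 and Mcm6 by -3.21. At the neuronal stage 35 of the 36 mitosis genes were still detected on at least 1 array, and Hmmr on none.

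Inhibitors of the cell cycle and D-type cyclins rose in the same arrays. They were read as 1 list, called cell cycle exit here, although the cyclins Ccnd1, Ccnd2 and Ccnd3 on it are not exit genes. Of its 15 tested genes 13 rose, these cyclins among them, and 1 fell, with a median of 1.40. Cdkn2b, an inhibitor of Cdk4 and Cdk6, went from 6.50, 6.49 and 6.33 to 9.92, 9.86 and 9.82 (3.42, SE 0.08), and Cdkn2a (2.75) and Cdkn1c (2.36) rose as well. Cyclin D2, Ccnd2, rose by 3.31 with a wide spread over arrays, from 6.94, 7.75 and 8.02 to 10.06, 10.95 and 11.62 (SE 0.46, adjusted p = 4.2e-06), but the stages did not overlap. The member that fell was the retinoblastoma-like gene Rbl1 (-1.36).

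Growth genes fell with the cell cycle. Of 33 tested genes of ribosome biogenesis 31 fell and none rose, with a median of -1.83. Rrp12, which takes part in the export of ribosomal subunits, changed by -2.85, the rRNA methyltransferase Nop2 and the box C/D protein Nop58 by -2.53 each and Ddx21 by -2.52. Nop10 (-0.47) and Myc (0.46) were not called.

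Genes of purine metabolism, the pathway of the targeted enzyme, fell more often than they rose. Of 31 tested genes 16 fell and 4 rose, with a median of -0.73. The multifunctional enzyme Gart fell from 10.10, 10.09 and 9.95 to 7.59, 7.59 and 7.26 (-2.57), Ppat, the first committed enzyme of purine synthesis, changed by -2.45, Prps1 by -2.13 and Adsl by -2.06. The genes that rose were 4: Nt5e, the surface 5′-nucleotidase, rose by 2.91, AMP deaminase 3 (Ampd3) by 2.39, GMP reductase (Gmpr) by 1.99 and Adssl1 by 1.10.

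**Figure D2:**
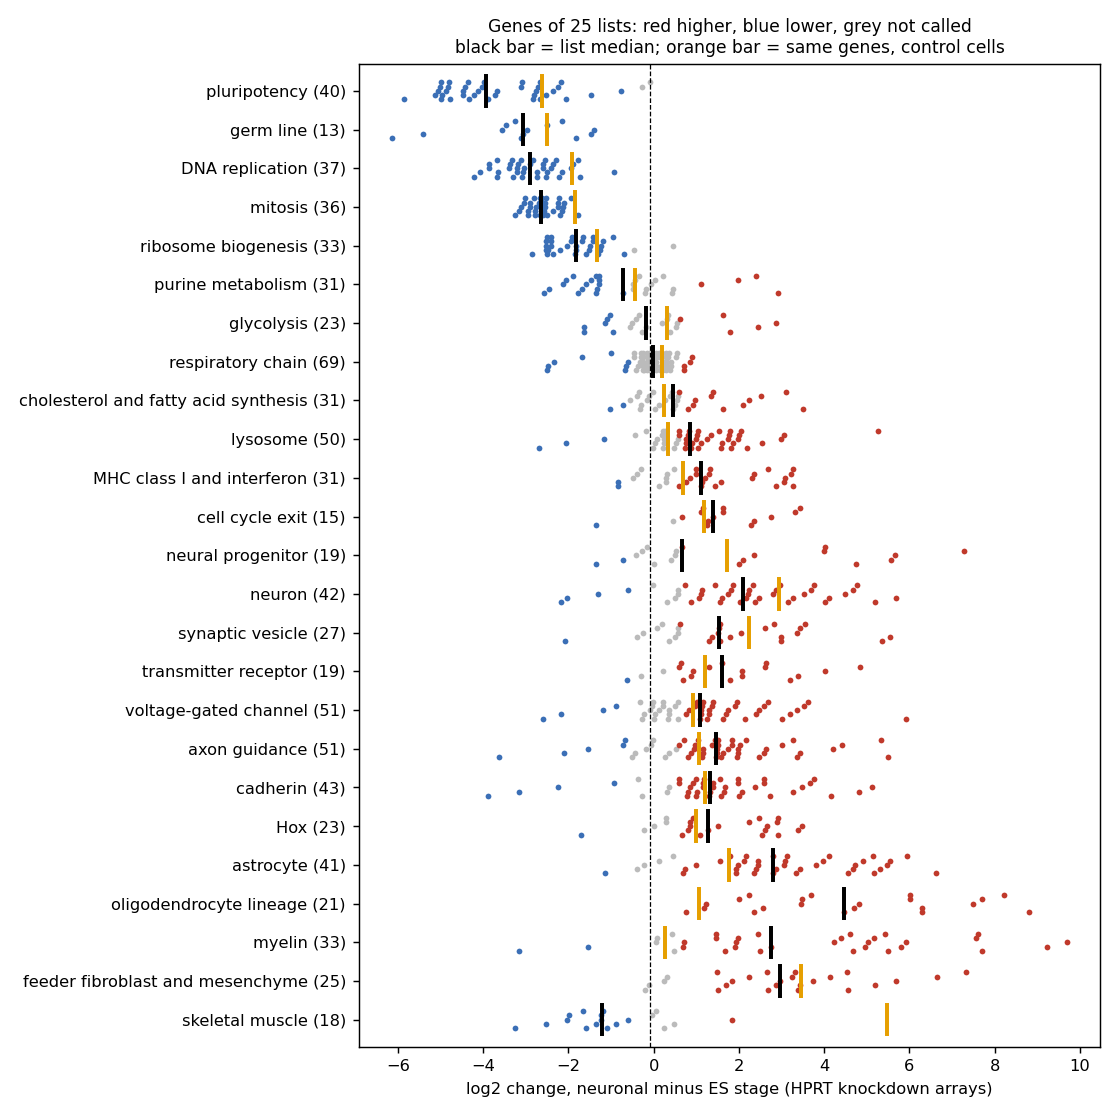
Log2 change from ES to neuronal stage on the knockdown arrays for each tested gene of 25 lists (number tested in brackets); red points were called higher, blue lower and grey not called. The black bar is the list median (for example -3.94 for pluripotency and 4.46 for the oligodendrocyte lineage), the orange bar the median of the same genes in control cells, and the dashed line the median of all tested probes, -0.10.

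Neuronal genes rose as a group, with named exceptions. Of 42 tested genes 33 rose and 4 fell, with a median of 2.09 (1.91 with genes below detection at the ES stage taken at their lower bound). Rtn1, a reticulon of neurons, read 7.69, 7.61 and 7.69 at the ES stage and 13.17, 13.41 and 13.44 at the neuronal stage (5.67, SE 0.09, adjusted p = 5.1e-18). Map2, the dendritic microtubule protein, went from 6.67, 6.55 and 6.21 to 11.15, 11.23 and 11.38 (4.78, SE 0.10). For both genes each neuronal array was above each ES array. Scg3, of the secretory granules, was not detected at the ES stage and was at least 28.3-fold higher, the stathmin Stmn4 at least 18.1-fold, and the growth cone gene Gap43 rose by 4.48. Among the markers, Dcx, of migrating young neurons, rose by 3.69, the RNA-binding protein gene Elavl3 by 2.46, and Syt1 was at least 6.21-fold higher. Tubb3 and Snap25 were not tested, because they were not detected on all 3 arrays of a stage.

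The 4 neuronal genes that fell were detected in the ES cells, which the detection filter nearly requires of a gene that falls. Stmn2, a stathmin of growing axons, read 10.27, 10.26 and 10.21 and then 8.97, 8.90 and 8.94 (-1.31, SE 0.05, adjusted p = 6.7e-13). In control cells it rose from a mean of 10.20 to 12.01. The RNA-binding protein gene Elavl2 changed by -2.16, the intermediate filament gene Ina (internexin) by -2.03 and the adhesion receptor gene Celsr3 by -0.60.

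Of 27 tested genes of the synaptic vesicle 18 rose and 1 fell, with a median of 1.52. The synaptotagmin Syt4 went from 5.33, 6.01 and 5.41 to 10.88, 11.14 and 11.36 (5.54, SE 0.16). Rab3a, which tethers vesicles, rose by 3.55 and Syn2 was at least 8.03-fold higher. Of the vesicular transporters that mark glutamate and GABA neurons, Slc17a6 was undetected on the ES arrays and at least 1.93-fold higher, with a neuronal mean of 5.88, and Slc32a1 changed by 1.52. The priming factor Unc13a fell and was not detected at the neuronal stage.

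Of 19 tested transmitter receptor subunits 16 rose and 1 fell, and 23 further subunits, Grin1 among them, were not tested. The AMPA receptor subunit gene Gria3 was undetected at 4.28, 4.26 and 4.21 on the ES arrays and read 8.99, 9.05 and 9.25 on the neuronal arrays, at least 17.9-fold higher. Gria2 rose by 4.01 and Grm7 was at least 6.67-fold higher. Gabrg3 changed by -0.62. Of 51 tested voltage-gated and other potassium, sodium and calcium channel genes 30 rose and 4 fell, with a median of 1.09 that came to 0.62 with genes below detection taken at their bound. The potassium channel gene Kcna6 led them, at least 43.0-fold higher, followed by Kcnd2 (at least 8.22-fold) and Kcnk2 (3.54). The falls were those of Kcnk5 (-2.59), Kcnk6 (-2.18), Hcn2 (-1.19) and Kcnu1 (-0.89).

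Neuropeptide genes went both ways, 7 up and 5 down of 15 tested. Trh, the precursor of thyrotropin-releasing hormone, was high in the ES cells at 12.24, 12.15 and 12.22 and fell to 8.18, 8.18 and 7.89 (-4.12). Calca fell likewise, by 7.98-fold, and Cck by 6.97-fold. Carboxypeptidase E, Cpe, which trims peptide precursors, rose by 5.39 and the proSAAS gene Pcsk1n by 2.50. Npy changed by 1.64, and Sst was at least 1.81-fold higher.

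The dopaminergic list, the fate that the culture aims at, rose in 10 of 17 tested genes and fell in 3, with a median of 1.28 (0.85 at the bounds). Th, which makes the precursor of dopamine, read 4.30, 4.57 and 4.38 on the ES arrays and 4.62, 4.37 and 4.63 on the neuronal arrays, was detected on none of them and was not tested. The transporter gene Slc6a3 was not tested either. Ddc, the next enzyme after Th, rose from 9.27, 9.25 and 9.11 to 11.15, 11.22 and 11.23 (1.99), and the vesicular monoamine transporter Slc18a2 was at least 1.81-fold higher. Of the midbrain factors, En1 rose by 3.77 and Foxa1 by 3.39, Lmx1a was at least 3.09-fold higher, and Foxa2 fell by 0.65.

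Glial genes showed the largest rises of single genes, although the astrocyte and myelin list medians lay below that of fibroblast and mesenchyme genes (2.96). Every one of the 21 tested genes of the oligodendrocyte lineage rose, with a median of 4.46 (3.75 at the bounds), and 27 of 33 tested myelin genes rose and 2 fell, with a median of 2.75. Sox10, on chromosome 15, read 4.37, 4.47 and 4.36 on the ES arrays, where it was not detected, and 13.18, 13.27 and 13.16 on the neuronal arrays. This is at least 309-fold, the largest bound of any named probe. In control cells the neuronal mean was 7.36. Olig1 went from 5.22, 4.87 and 5.22 to 13.33, 13.30 and 13.30 (8.21, SE 0.14, 296-fold), and Nkx2-2 from 5.61, 5.22 and 5.24 to 11.31, 11.39 and 11.39 (64.1-fold). Olig2, the partner of Olig1, was undetected at the ES stage, read 6.62, 6.74 and 6.75 at the neuronal stage and was at least 3.40-fold higher.

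Genes of committed precursors and of the first myelinating cells rose as much. Enpp6, a choline phosphodiesterase of newly formed oligodendrocytes, was not detected at the ES stage and read 11.46, 11.98 and 12.61 at the neuronal stage, at least 136-fold higher. The receptor Gpr17 was at least 117-fold higher, and Lhfpl3 at least 53.2-fold. Bcas1, a marker of the same early stage, rose by 6.28, from a mean of 8.05, and Lims2 by 6.01.

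Of the myelin proteins, Cldn11, the claudin of the myelin tight junctions, had the largest rise of any gene-named probe detected on all arrays of both stages. It read 5.49, 5.54 and 5.03 on the ES arrays and 14.56, 14.58 and 14.60 on the neuronal arrays (9.23, SE 0.13, 599-fold). Mag, the adhesion molecule next to the axon, went from 4.81, 4.91 and 4.61, with 1 ES array detected, to 12.44, 12.49 and 12.50 (7.70, SE 0.12). For both genes the stages did not overlap. The brightest probe of Mbp, whose ES signals were detected on 1 array, changed by 9.69 (SE 0.13), and Opalin was at least 128-fold higher. Mog, a protein of the outer and late myelin sheath, was at least 3.50-fold higher. Trf (transferrin, 5.92), Fa2h (5.80), which makes hydroxylated myelin lipids, and Cnp (5.50) rose too, while Ppp1r14a (-3.15) and the carbonic anhydrase gene Car2 (-1.54) fell.

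Astrocyte genes rose in 36 of 41 tested cases and fell in 1, with a median of 2.80. Gfap, the filament protein of astrocytes, was at 4.66, 4.78 and 4.84 on the ES arrays, undetected, and at 11.45, 11.39 and 11.29 on the neuronal arrays, at least 87.0-fold higher. Sparcl1 was at least 44.0-fold higher. The water channel gene Aqp4 spread most over arrays, with 9.29, 10.03 and 10.58 at the neuronal stage, and was at least 32.7-fold higher. S100b was at least 24.8-fold higher, the metallothionein Mt3 rose by 5.47, the glutamate transporter gene Slc1a3 by 4.71 and Aldh1l1 by 2.39. The fall was that of Mt2 (-1.15), and the gap junction gene Gja1 was bright at both stages (12.09 and 11.69) and not called.

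Some of these genes are also active in neural precursors, whose list was mixed: 10 of 19 tested genes rose and 2 fell, with a median of 0.67. The endothelin receptor gene Ednrb rose by 7.27, from 5.77, 5.89 and 5.24 to 12.75, 12.94 and 13.02, Ptprz1 was at least 34.5-fold and Fabp7 at least 36.2-fold higher, and Tnc rose by 4.74. Pax6 (-1.36) and Sox21 (-0.71) fell. Nes (nestin) read 7.76, 7.52 and 7.67 and then 7.62, 7.31 and 7.19 and was not called. More cells of a type and more RNA per cell cannot be told apart in these pooled cultures.

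The SNM arrays of the knockdown cells place these changes in time, as a description with no test. Of the neuronal genes called, 31 of 37 had made 50% or more of their change by the SNM stage, the median being 104%, and 21 lay beyond their neuronal value. Astrocyte genes were also early (median 92.7%). Oligodendrocyte lineage genes had made 47.2% of their change and myelin genes 27.7%, so that most of the myelin rise lay between SNM and neuronal stage. The mean of Mag, for example, went from 6.91 (SNM) to 12.48 (neuronal), and that of Opalin from 4.64 to 11.93. Pluripotency genes had made 69.9%, DNA replication genes 46.3% and mitosis genes 48.9% of their fall. Over all called probes, the SNM mean lay between the stages for 4159 of the 6339 rises and 5279 of the 7129 falls.

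**Figure D3:**
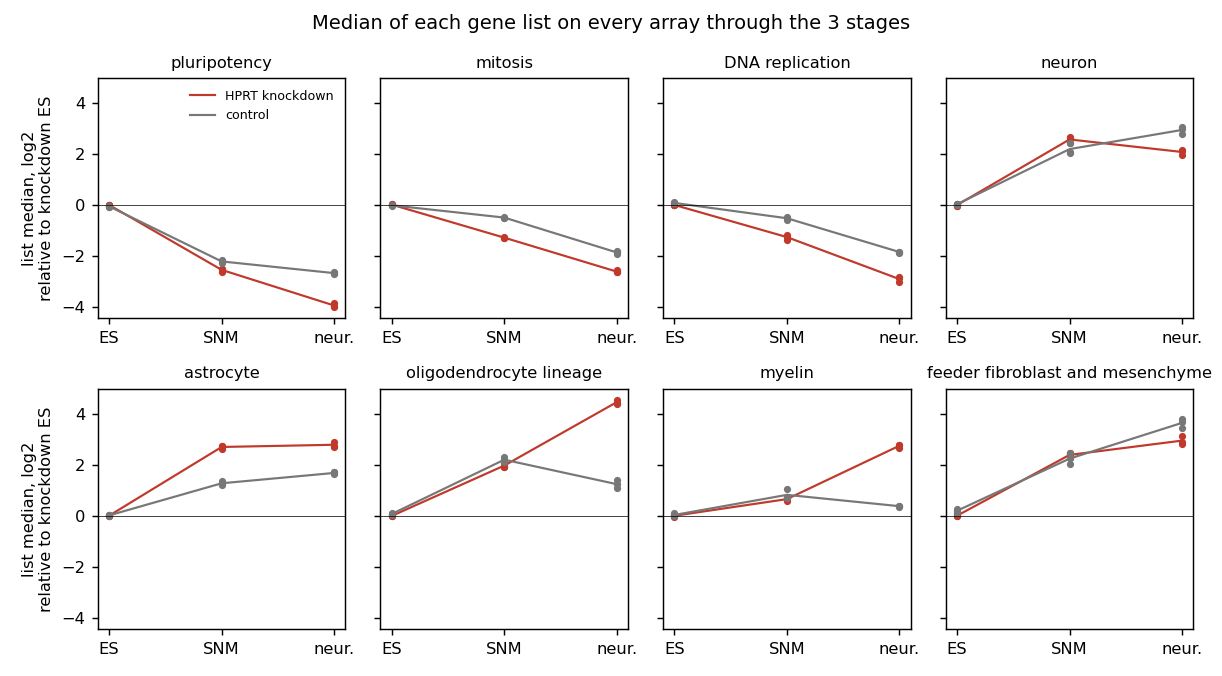
Median of 8 gene lists on every array at the ES, SNM and neuronal stage, in log2 units relative to the knockdown ES mean, for knockdown and control arrays (points are arrays, lines join the means of 3). The pluripotency median reached -3.94 in knockdown cells and -2.67 in control cells, and the oligodendrocyte lineage and myelin medians of knockdown cells rose further after the SNM stage.

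Patterning genes gave a mixed position. Of 23 tested Hox genes 18 rose and 1 fell, with a median of 1.28, led by Hoxd8 (3.48), Hoxa5 (3.38), Hoxb5 (at least 5.60-fold) and Hoxd9 (at least 5.74-fold), whereas Hoxc13 fell (-1.72). Of 23 forebrain factors on the array only 6 were tested, and 4 of these rose, with Nkx2-1 at least 6.74-fold higher. Nkx2-1, Dlx1 and Dlx2 passed the detection filter through the neuronal stage alone, which ties them to a rise. Emx1, Tbr1 and Six3 were among the factors not detected on all arrays of either stage. Of 17 midbrain and hindbrain factors 9 rose and 3 fell. En1 led the rises, and Gbx2, which is also a gene of naive ES cells, fell by 2.64 from 11.40, 11.50 and 11.48. Shh, the ventral signal, was undetected at 4.45, 4.45 and 4.35 on the ES arrays and read 9.02, 8.95 and 8.76 on the neuronal arrays, at least 15.7-fold higher. Of its pathway 5 of 15 tested genes rose and 3 fell: Nkx2-2, Dhh (2.17), Nkx6-1 (at least 2.59-fold) and Smo (0.93) also rose, and Gli2 (4.00-fold) and Foxa2 were among those that fell.

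Among ligands and receptors of other pathways, the Nodal and FGF ligands of ES cells fell: Nodal from 10.46, 10.34 and 10.39 to 5.46, 5.26 and 5.48, Gdf3 by 4.96, Fgf17 by 4.55 and Fgf4 to below detection, at least 5.28-fold. The FGF feedback and target genes went both ways. Spry4 (-2.59), Etv5 (-2.26) and Etv4 (-0.73) fell, while Spred1 (1.62), Spry3 (1.58) and Etv1 (1.27) rose. Dusp6 (0.15), Spry2 (-0.29) and Spred2 (-0.41) were not called. Of 23 tested FGF genes 8 fell and 9 rose, led by Fgf7 (2.41). In the BMP and TGF-beta list 20 of 29 rose and 4 fell. Tgfb2 was at least 11.4-fold higher, the BMP target Id2 rose by 3.45 and the protease gene Bmp1 by 3.48. In the Wnt list 14 of 24 rose and 7 fell. The secreted antagonists Dkk3 (5.05) and Wif1 (at least 15.2-fold) and the receptor Fzd1 (at least 20.7-fold) rose, and Fzd5 (-2.42) and Tcf7 (-2.32) fell. Of 20 Notch genes 9 rose and 1, Notch4 (-2.12), fell. The target Hey1 rose by 4.30, while Hes1 (-0.41) and Dll1 (0.00) were not called.

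The surface and guidance molecules that could be tested mostly rose. Of 51 tested axon guidance genes 38 rose and 5 fell, with a median of 1.47 (1.25 at the bounds). Sema5a was at least 36.4-fold and the plexin Plxnb3 at least 28.1-fold higher, Ephb1 at least 16.8-fold, and Nrp1 rose by 4.21. Epha2, an ephrin receptor of ES cells, fell from 8.56, 8.48 and 8.44 to 4.62, 4.99 and 4.97 (-3.63). Of 79 cadherins and protocadherins on the array 43 were tested, and 35 of these rose and 4 fell. The median was 1.31, and 0.98 with genes below detection taken at their bound. For 29 of the 43, no array of 1 stage detected the gene, so the detection filter nearly fixed the direction. E-cadherin, Cdh1, fell from 10.94, 10.80 and 10.88 to 6.99, 6.97 and 6.97 (-3.90) and P-cadherin, Cdh3, by 3.16. N-cadherin, Cdh2, was low at both stages (5.41 and 5.04, adjusted p = 0.11). The rises were led by Pcdh9, at least 23.2-fold, Cdh13 (4.83), Pcdhb6, at least 11.4-fold, and Pcdh17 (3.76).

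Of 69 tested genes of the respiratory chain 57 were not called, and the median was -0.02. The falls included the testis forms Cox7b2 (at least 4.16-fold) and Cox8c (at least 2.36-fold) and the muscle form Cox7a1 (-2.33), besides Uqcrb (-2.49). Of 23 tested genes of glycolysis and glucose uptake 5 rose and 6 fell. The glucose transporters Slc2a1 (-1.64) and Slc2a3 (-1.63) fell, and the neuronal enolase Eno2 (2.87) and the astrocyte and neuron aldolase Aldoc (2.45) rose. Of 31 tested genes of cholesterol and fatty acid synthesis 12 rose and 2 fell. The desaturase gene Scd1 rose from a mean of 9.52 (SD 0.02, n = 3 arrays) to 13.02 (SD 0.04), or 11.3-fold, Elovl7 was at least 6.23-fold higher, and Scd2 (2.52) and Fads1 (2.23) rose.

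Lysosomal genes rose in 32 of 50 tested cases and fell in 3, with a median of 0.85. The sulfatase gene Arsb went from 5.07, 5.16 and 5.19 to 10.44, 10.40 and 10.38 (5.27), and Naglu (3.06), Smpd1 (2.99) and Ids (2.54) followed, all of them enzymes that are deficient in storage diseases. Dnase2a (-2.70), Manba (-2.06) and Glb1 (-1.16) fell. Of 31 tested genes of MHC class I and the interferon response 21 rose and 2 fell, with a median of 1.10. They were led by Psmb8 (3.27), a subunit of the immunoproteasome, H2-D1, from 7.44, 7.58 and 7.47 to 10.85, 10.77 and 10.66 (3.26), Ifit2 (3.21), Tap2 (3.09) and H2-K1 (3.07). Class I genes are so alike in sequence that a probe for one may take up signal of another.

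Imprinted genes moved far in both directions. Of 16 tested 9 rose and 3 fell. Igf2, a fetal growth factor, rose from 8.82, 8.58 and 8.64 to 13.49, 13.50 and 13.41 (4.78), the neighbouring H19 by 4.00 and Dlk1 by 3.93, and Phlda2 fell by 4.20. Of 18 tested genes of the Atf4 response and serine synthesis 8 fell and 5 rose. Cth was at least 6.67-fold lower, Trib3 (-2.08) and Mthfd2 (-2.06) fell, and Vldlr (2.86) and Ddit3 (1.66) rose. Of 15 tested p53 targets 7 rose, led by Fas (4.04), and 5 fell, led by Pmaip1 (-2.51). The sign of this list's median turned when all probes of a gene were averaged.

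Markers of cells outside the nervous system were read too, as signals of mixed cultures that give no cell shares. Of 25 tested fibroblast and mesenchyme genes 21 rose and none fell, with a median of 2.96. Col3a1, a fibrillar collagen, was detected on 1 ES array (5.27, 4.70 and 4.50) and read 12.02, 12.01 and 12.41 at the neuronal stage (7.32, SE 0.16). Decorin, Dcn, rose from 6.80, 6.98 and 6.75 to 12.26, 12.56 and 12.76. Col6a1 rose by 6.64 on its brightest probe, and Col1a1 and Lum were at least 17.6-fold and 16.7-fold higher. The log2 of the summed signal of the 26 genes was 11.38 to 11.43 on the ES arrays and 14.77 to 14.93 on the neuronal arrays, with 12 and 25 genes detected on all 3. It rose beside the neuronal and glial lists, and its part in their changes was not tested. Endothelial genes split, with Emcn at least 29.9-fold higher and Pecam1 (-2.84) and Esam (-2.73) lower, and 6 of 11 falling in all. Of 12 tested endoderm and trophoblast genes 9 fell, led by Sox17 (-2.89), Sox7 (-2.62) and Gata6 (-2.15).

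Skeletal muscle and microglia were not prominent at the end point. Of 18 tested muscle genes 13 fell and 1 rose, with a median of -1.22. The fast myosin light chain gene Mylpf, on its brightest probe, fell from 10.07, 9.76 and 9.90 to 6.85, 6.58 and 6.56 (-3.24), and embryonic myosin, Myh3, from 7.43, 7.36 and 7.30 to 5.09, 4.60 and 4.83 (-2.52). The regulators Myog and Myod1 were not tested. The rise was that of Myl1, whose ES arrays disagreed (6.33, 4.41 and 4.58, with 1 detected, against 7.49, 6.64 and 6.69). The summed log2 signal of the 35 muscle genes in knockdown cells was 11.65 to 11.78 at the ES stage and 10.45 to 10.72 at the neuronal stage. In between, it rose to 13.19 to 13.25 at the SNM stage. The control arrays read 12.22 to 12.28 at the SNM stage and reached 17.28 to 17.32 at the neuronal stage. Of 16 microglial genes 3 were tested, and the defining markers Aif1, Csf1r, C1qa, Cx3cr1 and Itgam were not among them. Of the Schwann cell markers, Prx fell (-0.87) and Egr2 was not called (-0.37). On the neural crest and Schwann cell list 7 of 14 rose and 4 fell, with Tfap2b at least 4.51-fold higher and Mlana (-1.89) lowest. On the ependyma and choroid plexus list 5 of 11 rose and 4 fell, led by Aqp1 (4.30) and Folr1 (-2.89).

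Of the remaining genes with very large rises, several belong to glia or to the matrix. Among probes detected on all arrays of both stages these were Tmem176b (8.17), Igfbp5 (6.42), which encodes an IGF-binding protein, and Cav1 (6.33), the caveolin. Among probes undetected at the ES stage, the matrix inhibitor of calcification Mgp was at least 190-fold higher, Scrg1 at least 187-fold, the kinase gene Aatk at least 185-fold and Mmd2 at least 136-fold. The brain proteoglycan Ncan was at least 104-fold and Enpp2 (autotaxin) at least 99.9-fold higher.

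Pairs of related genes in which an embryonic member gives way to a neural one were looked at side by side. Of 27 pairs, 18 had both members tested, and in 2 the early member fell and the late member rose. Lamin B1 fell (Lmnb1, -1.89) and lamin A/C rose (Lmna, 1.04), and Cldn6, a claudin of early epithelia, fell (-0.81) while Cldn11 rose. In other pairs only the late member was called, as with the sodium pump subunits Atp1b3 (-0.34, not called) and Atp1b2 (4.12) and the enolases Eno1 (-0.51, not called) and Eno2. Fabp5, chosen as an early member, was itself undetected in the ES cells and at least 40.4-fold higher at the neuronal stage, as Fabp7 was.

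The same course was measured in control cells, and the difference of the changes (knockdown minus control) was tested in the same limma model. Over the 22480 probes tested for it, 3066 (13.6%) had a called positive and 2932 (13.04%) a called negative difference. Of the 6339 probes that rose in knockdown cells, 2195 had a positive and 694 a negative difference, and of the 7129 that fell, 1267 had a negative and 205 a positive one. The list counts here and below cover only genes tested between the knockdown stages. A gene that passed the filter only through control cells, such as Tubb3, is left out of them. Myelin and oligodendrocyte genes led the positive side, with 24 of 33 and 19 of 21 genes called positive. Opalin changed by 7.47 more in knockdown cells: control means were 4.71 at the ES and 4.79 at the neuronal stage. For Enpp6 the difference was 6.64, for Mag 6.54, for the second-named probe of Mbp 6.05, for Sox10 5.95 and for Gpr17 5.90. For Olig1 (1.86) and Cldn11 (1.65) it was smaller, and these rose to control neuronal means of 11.22 and 12.84. Astrocyte genes (25 positive, 2 negative, of 41), lysosomal genes (21 positive, none negative, of 50) and MHC class I and interferon genes (10 positive, none negative, of 31) lay on the same side.

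Pluripotency, replication and mitosis genes fell further in knockdown cells, with 30 of 40, 28 of 37 and 28 of 36 genes called negative. The control neuronal mean of Pou5f1 was 9.24 against 7.32 in knockdown cells, and the difference of changes was -1.95 (adjusted p = 6.1e-10). Genes of the cell cycle exit list, D-type cyclins included, showed no called difference in either direction (0 of 15). Neuronal genes were called negative in 23 of 42 cases and positive in 3, and Slc17a6 (-3.65), Sst (-4.10) and Npy (-3.20) rose less than in control cells. The most negative differences among probes called in both tests were those of muscle genes, which rose in control cells: Mylpf (-8.42 on its dimmer probe, and -7.45 on its brightest), Tnnc2 (-8.40), Myh3 (-8.14), Myl4 (-7.58), Acta1 (-7.42), Myl1 (-7.39), Myom2 (-7.11) and Actn2 (-6.83). All 18 muscle genes tested between the knockdown stages were called negative. Further muscle genes passed the filter only through control cells, and of these Myod1 (-0.32) was not called and Myh1 (-6.24) was. The part of muscle genes in the other differences was not tested.

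**Figure D4:**
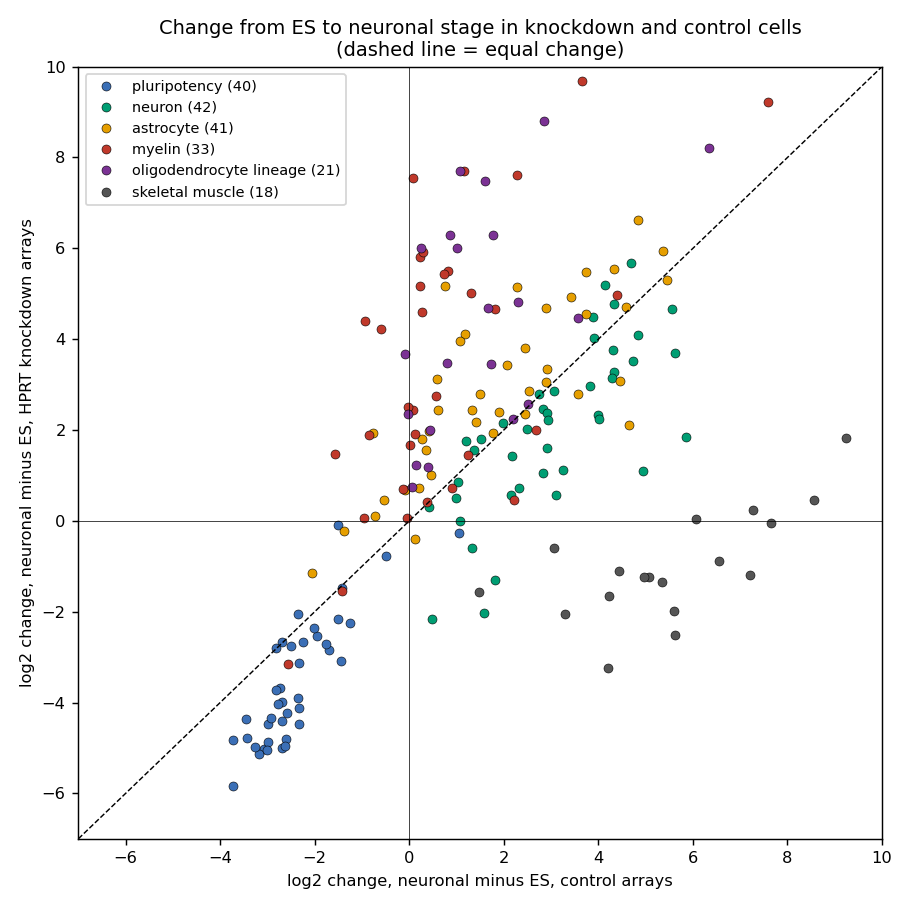
Log2 change from ES to neuronal stage in control cells (horizontal axis) and in knockdown cells (vertical axis). The genes are those of the lists named in the legend that were tested between the knockdown stages. The dashed line is equal change. Most oligodendrocyte lineage and myelin genes lie above the line, and all 18 skeletal muscle genes lie below it, 13 of them called lower in knockdown cells.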

How the data were processed

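Total RNA of replicate cultures was pooled per condition, and biotin-labelled cRNA from each pool was read on 3 arrays of the type Illumina MouseWG-6 v2. The deposited values were the average bead intensity of each probe and array, without background subtraction or normalization by the authors, and a deposited detection p-value. A second deposited table served only to annotate probes, and its 72 columns of per-sample values were not used.

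Intensities were background-corrected, quantile normalized and log2 transformed with limma 3.58.1 (neqc, offset 16) in R 4.3.3. All 6 conditions (18 arrays) were fitted in 1 limma model with empirical Bayes moderation and Benjamini-Hochberg adjustment. Probes detected (p under 0.05) on all 3 arrays of either stage were tested. For a probe detected on no array of a stage, a lower bound was computed against the dimmest detected signal. A gene of a list is represented by its brightest probe. The code was tested on simulated data.

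The members and the 43 gene lists were chosen with earlier results of these data known. Genes named were those with the largest changes or bounds, the leading and the opposing members of each list and the cell type markers. Any other gene was chosen after its values were seen. Deviations of same-numbered arrays correlated at r = 0.441, 0.115 and 0.366 for numbers 1, 2 and 3, and those of different-numbered arrays at -0.399 to 0.101. The margin was small for number 2 and the labels state no pairing, so it is uncertain whether the numbers pair the arrays. All arrays of a condition share 1 pool. The precision is limited by the number of arrays. Promoters and chromosomes are from RefSeq (GRCm38.p6). Some genes are not reported here.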

Additional observations from a re-analysis of the deposited data

Results flagged for a closer look

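The change from ES to neuronal stage differed between knockdown and control cells for 3066 probes in the positive and 2932 in the negative direction, by the interaction term of the limma model. Each value below is this difference of log2 changes, knockdown minus control, for genes selected by rank. The ranks were those of the largest changes between the stages, bounds or differences. The value is on the probe selected, which is not always the brightest (Mylpf -8.42, and -7.45 on its brightest). Other genes named above had called differences and are not repeated. Among these were Slc17a6 -3.65, Stmn2 -3.12, Atp1b2 2.93 and Shh 2.77. Of 42 neuronal genes, 23 were called negative and 3 positive.

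On the positive side, oligodendrocyte and myelin genes were the most numerous: Opalin 7.47, Enpp6 6.64, Mag 6.54, Mbp 6.05, Sox10 5.95, Gpr17 5.90, Nkx2-2 5.75, Trf 5.63, Bcas1 5.42, Lims2 5.00, Olig1 1.86 and Cldn11 1.65. The others selected were Scrg1 4.67, Mmd2 3.18, Cav1 3.17, Enpp2 2.94, Aatk 2.78, Ncan 2.06, Tmem176b 2.03, Ednrb 1.63, Mgp 0.88 and Igfbp5 0.79.

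On the negative side, muscle genes had the largest differences: Mylpf -8.42, Tnnc2 -8.40, Myh3 -8.14, Myl4 -7.58, Acta1 -7.42, Myl1 -7.39, Myom2 -7.11 and Actn2 -6.83. Genes of the ES state had smaller ones: Tdgf1 -2.31, Zfp42 -2.12, Tdh -1.96, Pou5f1 -1.95, Esrrb -1.94, Tex19.1 -1.94, Nodal -1.84, Nanog -1.73, Fbxo15 -1.72, Pla2g10 -1.50, Dazl -1.22, L1td1 -1.22, Tuba3a -1.03, Zscan10 -0.97, Nr5a2 -0.80 and Zfp296 -0.79.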

How the results depend on the processing

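The counts of calls from ES to neuronal stage were 6339 higher and 7129 lower, and the falls came to 4674 with a 2-fold minimum. The differences from control were called for 3066 and 2932 probes. These came to 1952 and 1857 with quantile normalization and no background correction, to 1372 and 1372 with a 2-fold minimum and to 4833 and 5083 with no minimum fold, and the negative ones to 1862 with scaling to the 75th percentile. Leaving out 1 array at a time gave 6328 to 6391 and 7114 to 7302 calls for the stages, and 3014 to 3132 and 2843 to 3026 for the differences. With the replicate block the counts were 6355, 7160, 3148 and 2973, and pairing the arrays changed no call of a named gene. The median change of all tested probes was -0.10, and 0.09 without scaling between arrays. The share of calls that were higher was 47.1%, and 55.7% without scaling and 40.3% with the 75th percentile. List medians moved by more than the spread between arrays in 232 cases over all lists and settings, and stayed within it in 413. The furthest moves were those of the oligodendrocyte lineage (4.46, and 3.06 with quantile normalization alone, 2.86 with the 75th percentile and 3.08 with an offset of 50), myelin (2.75, and 4.31 at a detection p under 0.01) and imprinted genes (1.95, and 0.32 with no detection filter). List medians that turned sign were those of the FGF list (-0.16, and 0.06 without scaling), microglia (0.33, and -0.06 with the 75th percentile), ependyma (0.33, and -0.07), the respiratory chain (-0.02, 0.01 with probes averaged and 0.02 without knockdown ES replicate 1) and p53 targets (0.55, and -0.44 with probes averaged). No called gene named in the report turned direction. Of those near the 1.5-fold minimum, Celsr3 was no longer called without knockdown neuronal replicate 3 (-0.55), Foxa2 without knockdown neuronal replicate 1 (-0.57), and Gabrg3 without knockdown ES replicate 1 (-0.55) or neuronal replicate 2 (-0.51). Celsr3, Foxa2, Gabrg3, Kcnu1 and Prx also lost their calls under other scalings or the offset of 50, as did Slc17a6, Slc18a2 and Sst with the 75th percentile. The causes were not tested. Arrays of 1 pool carry no spread between cultures, and signals near background limit the folds of low genes.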

Other observations

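On no chromosome but Y were more than 36.9% of the tested probes called higher or more than 36.4% called lower, and the Y chromosome was looked at after these shares were seen. All 9 tested Y-linked probes, for 8 gene symbols, were called lower at the neuronal stage, and on each the ES and neuronal arrays did not overlap. Of these, Rbmy1a1 and the brighter Ddx3y probe were detected on all arrays of both stages. The others passed the detection filter through the ES stage alone, which ties them to a fall. Eif2s3y, a translation factor gene, read 10.78, 10.66 and 10.83 on the knockdown ES arrays and 4.51, 4.86 and 4.96 on the neuronal arrays (-5.98), and the SNM mean was 8.99. In control cells it went from a mean of 10.63 to 4.40. The smallest change was that of Uty (-0.85). The helicase gene Ddx3y went from 10.29, 10.55 and 10.67 to 8.65, 8.76 and 9.33 (-1.59). None of the Y-linked probes had a called difference from control. Of the X-linked counterparts, Ddx3x fell (-0.97) and Eif2s3x (-0.23) was not called. The cause was not tested.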
